A study of Homo sapiens with 18 samples.

Results

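The effect of the BET inhibitor JQ1 on transcription starts was compared between the acute myeloid leukaemia cell lines OCI-AML3 and OCI-AML2, gene by gene and promoter by promoter, as the log2 ratio of JQ1 to vehicle in AML3 minus the same ratio in AML2 (an interaction). It rests on 12 of the 18 libraries of the series, 3 each of AML3 with JQ1, AML3 with vehicle (DMSO), AML2 with JQ1 and AML2 with vehicle. The other 6 libraries, of cells given the BET inhibitor OTX015, entered the model that estimates the spread. The assay was CAGE (cap analysis of gene expression), in which a short tag is read from each RNA at its capped 5′ end and tags are counted. The labels describe both lines as myeloid leukaemia cells and give neither a genotype, a dose nor a treatment time. As background, OCI-AML3 carries a mutation of NPM1 that displaces its protein to the cytoplasm, and OCI-AML2 does not. Each line is a single established line, so a difference between them is a difference between these lines and cannot be told apart from any other property in which they differ. Nothing in the labels says that replicates came from separate cultures, so the p-values measure the spread between these libraries, which may be technical.

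BET proteins, among them BRD2 and BRD3, bind acetylated histones through their bromodomains and recruit the elongation factor P-TEFb to promoters and enhancers. JQ1 occupies the bromodomains and displaces the proteins from chromatin. In leukaemia cells this is known to lower MYC and other genes with strong enhancers and to raise HEXIM1, an inhibitor of P-TEFb. A gene can answer BET inhibition differently in different cells, which the comparison of the lines addresses.

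Gene tags numbered 378794 to 1024704 per library in AML3 with JQ1, 822070 to 1864643 in AML3 with vehicle, 570101 to 1290954 in AML2 with JQ1 and 957036 to 2163106 in AML2 with vehicle, and the libraries numbered 3 were the shallowest of each group. Replicate 3 of AML3 with JQ1 stood apart from the other libraries of its group (Pearson's r across genes of log2 values 0.865 and 0.861, against 0.962 between replicates 1 and 2). Of 10 myeloid markers 9 were in the table, and their summed level was 633 to 952 CPM (tags scaled to the normalized library size) in AML3 with JQ1, 2130 to 2250 CPM in AML3 with vehicle, 2130 to 2390 CPM in AML2 with JQ1 and 2830 to 3420 CPM in AML2 with vehicle. All 5 erythroid markers, 8 of 10 markers of T, B and NK cells and 6 of 8 stromal and epithelial markers had no tag in the 12 libraries. The other T, B and NK markers were NKG7 (197 tags) and CD79A (4 tags). Their summed level was 0 CPM in AML3 with JQ1 and 2.35 to 2.84 CPM in AML3 with vehicle. It was 7.06 to 20.5 CPM in AML2 with JQ1 and 34.5 to 43.8 CPM in AML2 with vehicle. In bulk RNA, fewer cells of a type and less RNA per cell cannot be told apart.

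JQ1 changed the lines differently at 696 of the 10031 genes tested (6.94%, edgeR quasi-likelihood test, Benjamini-Hochberg adjusted p under 0.05). The difference was positive, that is, the ratio of JQ1 to vehicle was higher in AML3, for 303 genes (3.02%) and negative for 393 (3.92%). Opposite responses were counted apart from responses of unequal size. A gene was counted as opposite only where JQ1 against vehicle also passed the test in both lines, with unlike signs, which held for 106 genes (1.06% of genes tested and 15.2% of the 696). Of these, 84 fell in AML3 and rose in AML2 (0.837% of genes tested), with median log2 changes of -1.19 in AML3 and 1.22 in AML2. The other 22 rose in AML3 and fell in AML2 (0.219%), with medians of 1.08 in AML3 and -1.11 in AML2.

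A further 86 genes moved the same way in both lines and differed in size alone. Whether these or the opposite genes were more numerous depended on the processing, since with replicates 1 and 2 alone 193 genes moved the same way and 177 were opposite. Both lines rose at 28 genes with the larger rise in AML3 and at 18 with the larger rise in AML2, and both fell at 35 genes with the larger fall in AML3 and at 5 with the larger fall in AML2. Single libraries moved these counts, as the 28 were 12 without AML2 vehicle replicate 2 or AML3 vehicle replicate 1, 13 without AML2 vehicle replicate 3 or AML2 JQ1 replicate 1 or 2, 16 without AML2 vehicle replicate 1 and 17 without AML3 vehicle replicate 2. The 35 were 12 and 13 without AML2 JQ1 replicates 1 and 2, 16 and 21 without AML2 vehicle replicates 2 and 1, 22 without AML3 vehicle replicate 1 and 23 without AML3 JQ1 replicate 2. The 18 were 10 without AML3 vehicle replicate 1, and the 5 were 1 to 8. The remaining differences were genes called in a single line, 500 in all. There JQ1 raised 189 and lowered 155 in AML3 alone, and raised 99 and lowered 57 in AML2 alone, while 4 genes were called in neither line. Without AML2 JQ1 replicate 2 the 189 were 112 and the 57 were 29. The 189 were also 124 without AML2 vehicle replicate 2 and 125 without AML3 vehicle replicate 1 or 2, and the 57 were 33 without AML2 JQ1 replicate 1. Estimates of unlike sign were more frequent than opposite calls, at 431 of the 696 genes, and 321 of these were called in a single line. Most genes that responded in both lines did so in the same direction, 2336 of 2442, and 106 did not. JQ1 called more genes in AML3 (2685 rises, 26.8%, and 2414 falls, 24.1%) than in AML2 (1727 rises, 17.2%, and 1742 falls, 17.4%), and the median difference between the lines over all genes was 0.03.

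The promoter table, with 12867 promoters tested, gave like counts. It splits largely the same tags by start site, so it is no independent support. JQ1 raised 26.5% and lowered 23.8% of promoters in AML3, and raised 17.1% and lowered 18.1% in AML2. The JQ1 response differed at 714 promoters (5.55%), of which 289 (2.25%) were higher and 425 (3.3%) lower in AML3. Opposite responses were found at 111 promoters (0.863%), of which 85 fell in AML3 and rose in AML2 (0.661%) and 26 rose in AML3 and fell in AML2 (0.202%). A further 90 promoters moved the same way in both lines, 512 were called in a single line and 1 in neither. The totals depended on several libraries and were lowest without AML2 JQ1 replicate 2, at 462 genes and 467 promoters. They were 494 genes and 503 promoters without AML2 JQ1 replicate 1, and 508 and 523 without AML2 vehicle replicate 2. Without AML3 vehicle replicate 1 they were 504 and 494, and without AML3 vehicle replicate 2 501 and 533. Leaving out any library left 723 genes and 741 promoters at most. Without AML2 JQ1 replicate 2, a single line was called for 330 genes and 338 promoters. The 22 genes that rose in AML3 and fell in AML2 were 13 without AML3 vehicle replicate 2 or without AML2 JQ1 replicate 1, while the 84 were 59 to 84. Same-direction genes numbered 42 to 81, with 42 without AML2 JQ1 replicate 1, 45 without AML2 JQ1 replicate 2, 47 without AML3 vehicle replicate 1, 49 without AML2 vehicle replicate 2 and 56 without AML2 vehicle replicate 1. The same-direction promoters numbered 48, 42, 47, 48 and 53 without these libraries, in the same order, and 52 without AML3 vehicle replicate 2.

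**Figure D1:**
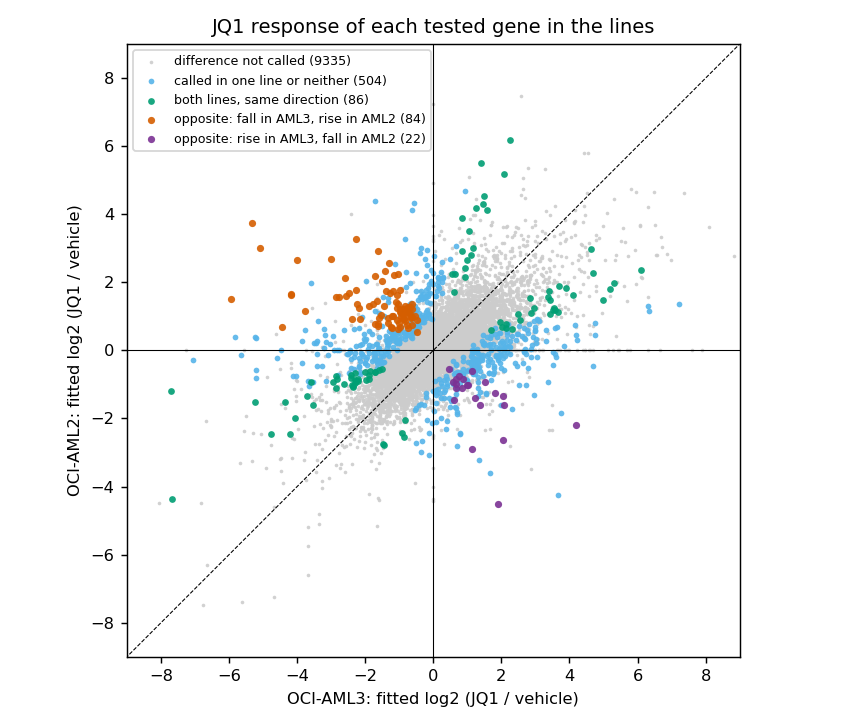
Each point is 1 of the 10031 tested genes, with the fitted log2 ratio of JQ1 to vehicle in OCI-AML3 on the horizontal axis and in OCI-AML2 on the vertical axis, coloured by its class, and the dashed line marks equal responses. The 84 genes that fell in AML3 and rose in AML2 lie in the upper left and the 22 that rose in AML3 and fell in AML2 in the lower right, while fitted ratios of genes with 3 or fewer tags in a group depend on the prior count.

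**Figure D2:**
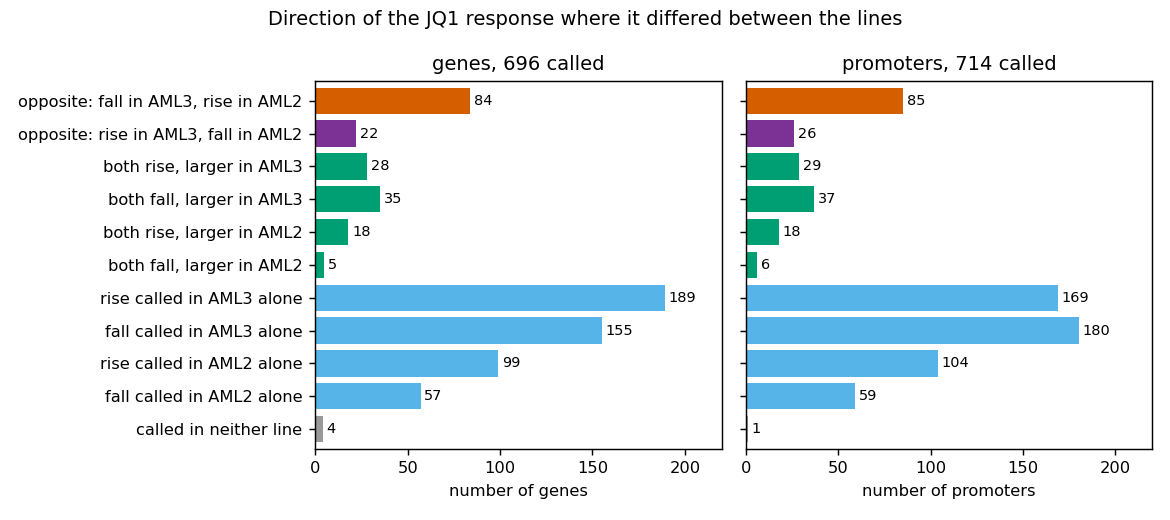
Bars give the number of genes (left, 696 in all) and promoters (right, 714 in all) with a called difference of the JQ1 response, by the direction called in each line. The longest bars are genes and promoters called in AML3 alone, and the opposite classes hold 106 genes and 111 promoters.

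Windows at the annotated starts of 4 opposite genes are shown before their values. The genes show both directions of opposite response, and the windows differ in the motifs they hold. They run from 250 bases before to 50 bases after the gene start in RefSeq (GRCh38.p14), read 5′ to 3′ on the strand of the gene. The windows were placed by annotation and not by the tags, so they need not hold the starts used in these cells. TNFAIP3, which encodes the ubiquitin-editing inhibitor of NF-kB signalling A20, lies on the plus strand (chr6:137867009-137867308). TYROBP, an adaptor of activating myeloid receptors, lies on the minus strand (chr19:35908246-35908545), as do CAPG, an actin-capping protein of macrophages (chr2:85413967-85414266), and SNHG19, a snoRNA host gene (chr16:2155309-2155608). TNFAIP3, TYROBP and CAPG fell in AML3 and rose in AML2, and SNHG19 did the reverse. Capitals mark, in TNFAIP3, an E-box (CACGTG) and then a pair of NF-kB matches (both on the other strand). In TYROBP they mark an ETS or PU.1 match (GAGGAAGT, other strand), in CAPG a CCAAT box and an AP-1 match (TGACTCA), and in SNHG19 CCAAT boxes on either strand and a TATA box (TATAAA).
TNFAIP3: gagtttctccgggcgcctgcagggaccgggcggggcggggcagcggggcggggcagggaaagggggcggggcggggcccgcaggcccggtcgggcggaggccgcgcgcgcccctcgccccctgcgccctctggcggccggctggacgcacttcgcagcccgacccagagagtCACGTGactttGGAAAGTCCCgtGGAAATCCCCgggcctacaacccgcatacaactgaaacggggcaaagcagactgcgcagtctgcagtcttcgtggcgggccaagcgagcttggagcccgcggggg
TYROBP: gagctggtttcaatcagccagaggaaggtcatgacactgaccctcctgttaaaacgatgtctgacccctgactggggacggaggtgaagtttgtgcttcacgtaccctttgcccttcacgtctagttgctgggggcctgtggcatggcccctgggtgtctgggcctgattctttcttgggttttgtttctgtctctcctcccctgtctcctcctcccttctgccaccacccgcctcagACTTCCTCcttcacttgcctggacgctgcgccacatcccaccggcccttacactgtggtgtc
CAPG: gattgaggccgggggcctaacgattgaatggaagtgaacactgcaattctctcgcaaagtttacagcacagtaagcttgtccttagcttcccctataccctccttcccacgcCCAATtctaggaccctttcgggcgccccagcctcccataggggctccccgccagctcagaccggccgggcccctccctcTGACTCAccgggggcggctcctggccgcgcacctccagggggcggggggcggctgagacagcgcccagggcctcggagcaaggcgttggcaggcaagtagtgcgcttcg
SNHG19: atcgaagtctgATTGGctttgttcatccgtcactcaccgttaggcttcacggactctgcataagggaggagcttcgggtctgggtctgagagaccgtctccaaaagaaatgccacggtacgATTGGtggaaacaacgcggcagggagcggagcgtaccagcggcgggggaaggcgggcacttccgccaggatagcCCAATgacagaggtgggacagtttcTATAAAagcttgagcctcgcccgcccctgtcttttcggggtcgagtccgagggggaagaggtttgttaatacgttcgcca
No test of the motif shares was made. A window was found for 69 of the 84 genes that fell in AML3 and rose in AML2, and 18 of the 22 that did the reverse. GAGGAAGT on either strand was in 5.8% of the 69 windows, against 2.54% of all 27305 windows of the table, and TGACTCA was in 5.8% against 4.92%. The NF-kB motif was in 2.9% against 1.92%, and the C/EBP motif TTGCNNAA in 10.1% against 10.6%. CCAAT was in 33.3% of the 69 windows against 35.7% of all, CACGTG in 7.25% against 7.43% and TATAAA in 7.25% against 12%. In the 18 windows of genes that rose in AML3 and fell in AML2, CCAAT was in 27.8%, CACGTG and TATAAA in 11.1% each and GAGGAAGT in 5.56%, and the other motifs in none. Each motif was counted on its own, whether or not it overlapped another, and the shares are descriptions. The 27305 windows include those of genes that were not tested. Their median share of G and C bases was 58.3%, against 64.7% in the 69 windows and 64.8% in the 18. The part of this in the motif shares was not tested.

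The genes that fell in AML3 and rose in AML2 are described from those that the naming rule chose. The rule took called genes, which favours groups of libraries that do not overlap. A lack of overlap in opposite genes is thus description and no separate support. CAPG had 36.5, 41.2 and 32.5 CPM in the 3 AML3 libraries with JQ1, against 123, 132 and 111 CPM with vehicle. In AML2 it had 279, 264 and 307 CPM with JQ1, against 75, 52.6 and 61.3 CPM with vehicle. The groups did not overlap in either line, and the log2 change was -1.72 in AML3 (SE 0.23, adjusted p 1.97e-06) and 2.17 in AML2 (SE 0.22, adjusted p 4.71e-08), a difference of -3.89 (SE 0.32, adjusted p 1.03e-08, edgeR). LST1, a small membrane protein of leukocytes, had 5.34, 10.6 and 1.8 CPM in AML3 with JQ1, against 86.8, 83.1 and 184 CPM with vehicle. It had 1858, 1780 and 2478 CPM in AML2 with JQ1, against 582, 490 and 883 CPM with vehicle. Its level was thus already lower in every AML3 vehicle library than in any AML2 vehicle library, and JQ1 widened the gap, with a difference of -5.81 (SE 0.59, adjusted p 4.63e-07) that was -6.45 without AML3 JQ1 replicate 2. DOK2, an adaptor that restrains tyrosine kinase signalling, had 15.1, 28.5 and 30.7 CPM in AML3 with JQ1, against 108, 113 and 93.6 CPM with vehicle. With levels of 111, 101 and 101 CPM in AML2 with JQ1, against 53.9, 65.6 and 40.9 CPM with vehicle, it did not overlap between JQ1 and vehicle in either line (difference -3.07, SE 0.32, adjusted p 6.38e-07).

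In 3 of these genes JQ1 left so few tags in AML3 that a fitted fold change is not given. GPR84, a receptor for medium-chain fatty acids on myeloid cells, had 2 tags in AML3 with JQ1, against 108 with vehicle, a level 39.7-fold lower (95% counting interval 10.7 to 332). It reached 175, 244 and 164 CPM in AML2 with JQ1, against 23.6, 16.8 and 37.1 CPM with vehicle (log2 change 3.0, SE 0.28), and the difference between the lines had an adjusted p of 8.6e-09. ITGAX, which encodes the integrin CD11c of monocytes and dendritic cells, had no tag in AML3 with JQ1, against 18 with vehicle, at least 4.42-fold lower when the group as a whole is set to a floor of 3 tags. It had 87.9, 111 and 93.5 CPM in AML2 with JQ1, against 6.74, 8.68 and 5.11 CPM with vehicle (log2 change 3.73, SE 0.28; adjusted p of the difference 3.78e-06). HK3, the hexokinase of myeloid cells, had no tag in AML3 with JQ1, against 7 with vehicle, which is at least 1.72-fold lower, and vehicle replicate 3 had none either, so that the groups overlapped. The AML2 libraries had 61.6, 67 and 86.4 CPM with JQ1, against 12.6, 9.76 and 11.5 CPM with vehicle (log2 change 2.66, SE 0.28). The fall of HK3 in AML3 was no longer called without AML3 vehicle replicate 1 or AML3 JQ1 replicate 1, although the difference between the lines was (adjusted p 0.00176 with all libraries). Intervals and floors cover counting error only.

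Adaptors, enzymes and receptors of the same cells followed. TYROBP averaged 34.2 ± 14.5 CPM in AML3 with JQ1 and 185 ± 52.4 CPM with vehicle, and 836 ± 71.6 CPM in AML2 with JQ1 and 439 ± 19.1 CPM with vehicle (SD, n = 3 each). JQ1 and vehicle did not overlap in either line, and the difference was -3.30 (SE 0.40, adjusted p 5.58e-06). CYBB, the catalytic subunit of the phagocyte NADPH oxidase, had log2 changes of -2.55 (SE 0.59) in AML3 and 1.59 (SE 0.33) in AML2. Its level in AML3 with JQ1 was 1.06 to 3.61 CPM, near the limit of counting. The receptors TNFRSF1A, for tumour necrosis factor, and IL6R, for interleukin-6, changed less. TNFRSF1A had 34.3 to 58.1 CPM in AML3 with JQ1, against 86.8 to 105 CPM with vehicle, and 153 to 155 CPM in AML2 with JQ1, against 64.9 to 85.6 CPM with vehicle (difference -1.93, SE 0.30, adjusted p 0.000153). IL6R had a difference of -1.97 (SE 0.35, adjusted p 0.00067), and its fall in AML3 (-0.69, SE 0.26) was lost without AML3 vehicle replicate 1, AML3 JQ1 replicate 1 or AML3 JQ1 replicate 2, and its opposite class was also lost with upper-quartile factors, with DESeq2 and with a minimum of 10 CPM.

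Among genes of other roles, AFF3, a member of the AF4 family of elongation complex scaffolds, had 2.67, 2.11 and 0 CPM in AML3 with JQ1, against 50.4, 38.1 and 42.5 CPM with vehicle. It had 134, 160 and 150 CPM in AML2 with JQ1, against 86, 106 and 79.2 CPM with vehicle. The difference was -5.15 (SE 0.48, adjusted p 8.35e-08), and the rise in AML2 (0.70, SE 0.21) was lost without AML2 JQ1 replicate 2. RAB8B, a small GTPase of vesicle transport, had 14.4 to 19 CPM in AML3 with JQ1, against 45.4 to 53.4 CPM with vehicle, and 70.5 to 95.3 CPM in AML2 with JQ1, against 34.6 to 41.2 CPM with vehicle (difference -2.58, SE 0.30, adjusted p 4.04e-06). The calcium-binding protein S100A4 had 168 to 216 CPM in AML3 with JQ1, against 637 to 808 CPM with vehicle, and 1048 to 2147 CPM in AML2 with JQ1, against 360 to 939 CPM with vehicle. GFI1, a transcriptional repressor of granulocyte differentiation, had 32.5 to 41.2 CPM in AML3 with JQ1, against 61 to 75.6 CPM with vehicle, and 108 to 138 CPM in AML2 with JQ1, against 48.9 to 66.2 CPM with vehicle. JQ1 and vehicle did not overlap in either line for AFF3, RAB8B, S100A4 and GFI1. The ribonucleotide reductase subunit RRM2, needed for DNA synthesis, had 72 to 75.8 CPM in AML3 with JQ1, against 110 to 157 CPM with vehicle, and 344 to 506 CPM in AML2 with JQ1, against 155 to 250 CPM with vehicle. Its difference was -1.87 (SE 0.36, adjusted p 0.00139), and the fall in AML3 was lost without AML3 vehicle replicate 3 or AML3 JQ1 replicate 1. The others in this class that the naming rule did not reach include PLAUR, MMP9, FERMT3, PRKCD, IL4R, CD53, CD68, LCP1, LCP2, LAPTM5, FGR and RUNX3, picked after their class was known. With 1 library left out, LCP2 kept the class in 4 of 12 fits, RUNX3 in 5, FGR in 8 and the rest of these in 9 to 12. The picks do not stand for the whole class, which also holds ASF1B, SNRNP25, HYLS1, DCAF12, NCOA4, HERPUD1 and RABAC1 (kept in 3 to 8 fits).

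The 22 genes that rose in AML3 and fell in AML2 were of varied roles. FABP5, a carrier of fatty acids, had 590, 627 and 381 CPM in AML3 with JQ1, against 222, 172 and 333 CPM with vehicle. The AML2 libraries had 34.2, 41.4 and 75.9 CPM with JQ1, against 414, 367 and 322 CPM with vehicle. The groups did not overlap in either line, and the changes were 1.14 in AML3 (SE 0.36) and -2.90 in AML2 (SE 0.41), a difference of 4.05 (SE 0.55, adjusted p 2.37e-05). The rise in AML3 was lost without AML3 vehicle replicate 2. SNHG19 had 165, 170 and 265 CPM in AML3 with JQ1, against 66.3, 75.3 and 66.7 CPM with vehicle, and 103, 111 and 122 CPM in AML2 with JQ1, against 240, 164 and 231 CPM with vehicle. The secreted protein FAM3C had 84.5, 105 and 75.8 CPM in AML3 with JQ1, against 27, 21.6 and 26.9 CPM with vehicle, and 7.99, 15.9 and 8.82 CPM in AML2 with JQ1, against 23.6, 26 and 34.5 CPM with vehicle. Both genes were apart in both lines, with differences of 2.43 (SE 0.33, adjusted p 2.42e-05) and 3.06 (SE 0.43, adjusted p 4.15e-05).

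ID3, an inhibitor of helix-loop-helix transcription factors, had 89.8, 93 and 90.2 CPM in AML3 with JQ1, against 24, 16.4 and 25.5 CPM with vehicle. In AML2 it had 7.99, 9.7 and 14.1 CPM with JQ1, against 37.1, 30.4 and 3.83 CPM with vehicle, so that vehicle replicate 3 lay below the JQ1 libraries. The fall in AML2 (-1.33, SE 0.44) was lost without AML2 vehicle replicate 1 or 2 or AML2 JQ1 replicate 1 or 2, while the difference of 3.38 (SE 0.55, adjusted p 0.000228) held each time. INKA1, an inhibitor of the kinase PAK4, had 12.6 to 19.6 CPM in AML3 with JQ1, against 5.67 to 6.92 CPM with vehicle, and 3.42 to 5.29 CPM in AML2 with JQ1, against 11.4 to 15.3 CPM with vehicle (difference 2.99, SE 0.56, adjusted p 0.00107). COQ4, of coenzyme Q synthesis, had a difference of 1.77 (SE 0.34), and the motor protein KIF16B of 3.69 (SE 0.66). The rise of COQ4 in AML3 was lost without AML3 vehicle replicate 1 or 2 or AML3 JQ1 replicate 1, and its opposite class with DESeq2. The fall of KIF16B in AML2 was lost without AML2 vehicle replicate 1 or AML2 JQ1 replicate 1, and its difference was 4.65 without AML2 JQ1 replicate 2 and 4.73 without AML3 vehicle replicate 1. CZ1P-ASNS is an annotated read-through that overlaps ASNS, so its tags (120 to 125 CPM in AML3 with JQ1, against 48.2 to 66.6 CPM with vehicle, and 37.9 to 43.4 CPM in AML2 with JQ1, against 52.4 to 67.8 CPM with vehicle) may be those of ASNS. Its fall in AML2 was lost without AML2 vehicle replicate 2 or AML2 JQ1 replicate 2 or 3, and its opposite class with upper-quartile factors. The other 14 were ZFPM2-AS1, RPRD1A, SNHG17, ZDHHC21, APBA2, AFMID, WASF1, ARHGEF6, SUPT3H, IDH1, TMTC4, IFT57, MIPEP and GTF2E2. With 1 library left out, the opposite class of GTF2E2 was kept in 0 of 12 fits. That of IDH1, IFT57 and MIPEP was kept in 4 and that of TMTC4 in 5. ZDHHC21 kept it in all 12, and the rest of the 14 in 8 to 11.

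**Figure D3:**
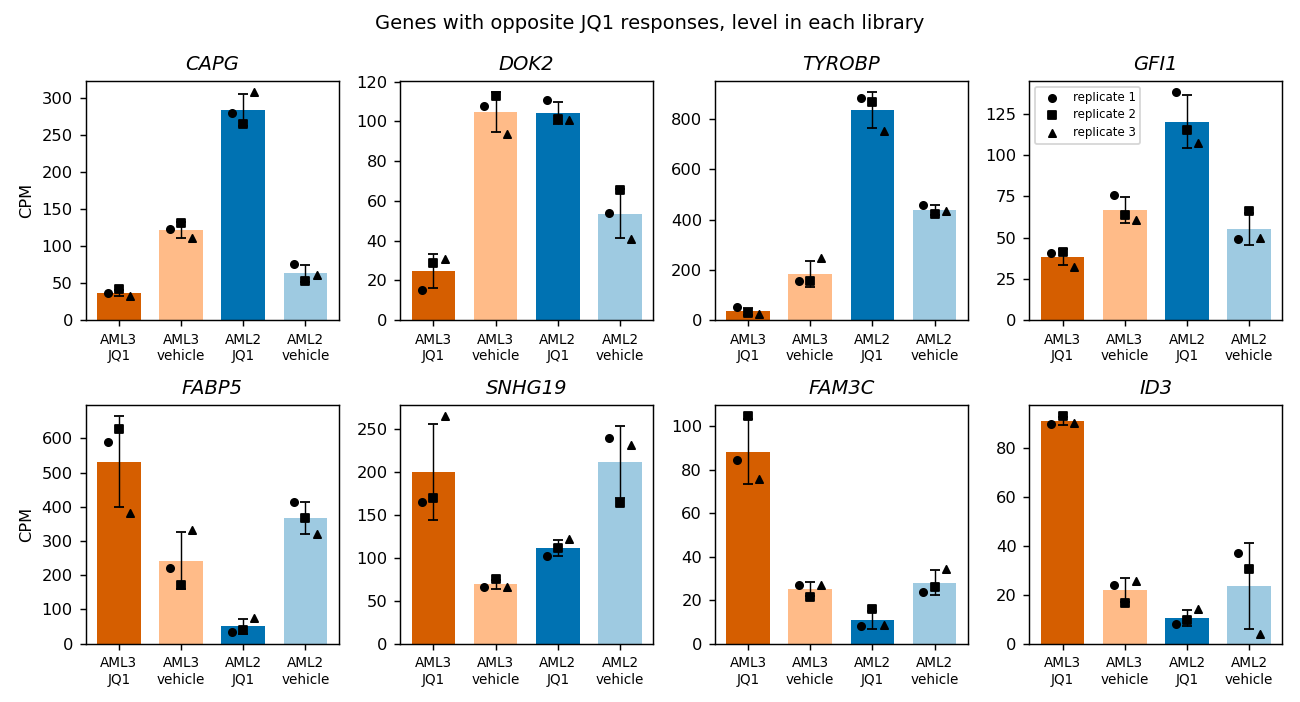
Level in CPM (vertical axis, from 0) of 8 genes with opposite responses in AML3 with JQ1, AML3 with vehicle, AML2 with JQ1 and AML2 with vehicle; bars are means, error bars SD (n = 3) and symbols the replicates. In the upper row JQ1 lies below vehicle in AML3 and above it in AML2, and in the lower row the reverse, with ID3 in AML2 vehicle replicate 3 (3.83 CPM) as the exception.

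At the level of single promoters, which hold largely the same tags as the genes, the same genes led. Coordinates are those of the promoter names in the deposited table (hg19). The promoter of GPR84 (chr12:54758251-54758277) had 2 tags in AML3 with JQ1, and 175, 246 and 165 CPM in AML2 with JQ1, against 24.4, 17.4 and 37.9 CPM with vehicle (adjusted p of the difference 4.81e-09). LST1 used several start sites. Its promoter at chr6:31553978-31554060 had 2.71, 5.36 and 0 CPM in AML3 with JQ1, against 72, 76.9 and 150 CPM with vehicle, and 1067, 1007 and 1611 CPM in AML2 with JQ1, against 252, 213 and 517 CPM with vehicle (difference -6.86, SE 0.68, adjusted p 1.86e-07). Of the 10 LST1 promoters tested, 3 were opposite, 1 rose in AML2 alone and 6 had no called difference. SNHG19 (chr16:2205352-2205359), FAM3C (chr7:121036337-121036429) and ID3 (chr1:23885981-23886002) each had a promoter with a positive difference, of 2.47 (SE 0.35), 3.11 (SE 0.44) and 3.41 (SE 0.55). The promoter of FABP5 had a difference of 4.10 (SE 0.55) and that of DOK2 of -3.30 (SE 0.37). A promoter at chr2:85637459-85637495 that could not be matched to a gene by its counts had a difference of -3.88 (SE 0.33, adjusted p 1.35e-08, edgeR). It lies on the chromosome and strand of CAPG. Its tags were 92 in AML3 with JQ1, 405 with vehicle, 657 in AML2 with JQ1 and 208 with vehicle. CAPG had 98, 440, 718 and 234 in the same order, so this may be the CAPG result seen again. Whether the CAPG window printed above holds this start was not checked.

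Genes and promoters were paired where a run of neighbouring promoters summed to the tags of a gene in every library, which held for 9347 of the tested genes. Of these, 1922 had 2 or more tested promoters. A difference was called at 1 or more promoters of 194 of them, at all tested promoters of 27, and in both directions at 0. Of the 106 opposite genes 91 were paired, of which 60 had 1 tested promoter and 27 had 2 or more. A promoter of the same class was found for 67 of the 91. With 1 tested promoter, gene and promoter hold largely the same tags, so their like class is no separate support. Of the 111 opposite promoters 93 were paired. The gene itself was opposite for 72 of these promoters, was called in a single line for 16 and had no called difference for 5. The examples that follow were chosen after their values were seen. The cyclin gene CCND3 rose in AML2 alone, but 2 of its promoters (chr6:41909466-41909520 and chr6:41909533-41909560) were opposite, with differences of -2.19 (SE 0.40) and -2.21 (SE 0.53), while another one next to them had a difference of -0.56 (SE 0.44) that did not pass. At JUND, an AP-1 subunit, a weak promoter (chr19:18392236-18392248, mean 6.15 CPM) was opposite, with a difference of -4.92 (SE 1.06), while the main one (mean 422 CPM) had a difference of -0.03 (SE 0.42). IKZF1, a lymphoid and myeloid transcription factor, fell in AML3 alone at all 3 of its tested promoters, with differences of -1.49, -2.54 and -2.77.

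Lists of genes with known roles were counted against the 3.02% of genes higher and 3.92% lower in AML3 overall. Of 24 monocyte and macrophage genes tested, 10 were lower and 0 higher, with a median difference of -1.86, and 4 of the 10 were opposite (CD68, CYBB, ITGAX and TYROBP). The others were AIF1, CD86, FCGR2A, IRF8, LILRB4 and MNDA. The Fc receptor FCGR2A had 5.28 to 10.7 CPM in AML3 with JQ1, against 58.1 to 115 CPM with vehicle, and 18.3 to 42.3 CPM in AML2 with JQ1, against 19.2 to 34.7 CPM with vehicle (difference -3.30, SE 0.49, adjusted p 8.82e-05). CD14 and ITGAM, the usual monocyte markers, had too few tags to be tested, at most 9 in a group, and MPO is not analysed here. Of 22 receptor genes of blood cells, 9 were lower and 0 higher (median -1.01). The cytokine receptor FLT3 rose in AML2 alone, to 273 to 305 CPM with JQ1, against 75.4 to 105 CPM with vehicle, and had 24.3 to 41.5 CPM in AML3 with JQ1, against 33.7 to 55.3 CPM with vehicle (difference -1.98, SE 0.36, adjusted p 0.000689). The chemokine receptor CXCR4 fell in AML3 alone (difference -1.77, SE 0.31, adjusted p 0.000597).

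Transcription factors of myeloid cells followed, with 9 of 26 lower, 0 higher and a median of -0.98: CEBPA, CEBPB, GFI1, IKZF1, IRF5, IRF8, RUNX2, RUNX3 and SPI1. IRF8, which directs monocyte development, had 210 to 257 CPM in AML3 with JQ1, against 1007 to 1225 CPM with vehicle, and 258 to 312 CPM in AML2 with JQ1, against 352 to 447 CPM with vehicle. It fell in AML3 alone (difference -1.71, SE 0.34, adjusted p 0.00185). RUNX2 rose in AML2 alone, to 614 to 807 CPM with JQ1, against 157 to 319 CPM with vehicle, and had 35.9 to 57.7 CPM in AML3 with JQ1, against 36.9 to 69.5 CPM with vehicle (difference -1.81, SE 0.42, adjusted p 0.00711). The counts of these 3 lists stayed within 1.5 times when any library was left out. The summed myeloid markers, given above, were lower with JQ1 than with vehicle in both lines. In contrast, JQ1 raised 12 and lowered 0 of the transcription factor genes in AML2 (17.2% and 17.4% of all genes). The part of the markers in these results was not tested.

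In the S100 family, calcium-binding proteins of which S100A8 and S100A9 form calprotectin in granulocytes and monocytes, 6 of 10 genes were lower and 0 higher (median -2.73). S100A8 had 22.2, 40.2 and 68.5 CPM in AML3 with JQ1, against 31.7, 33.7 and 106 CPM with vehicle. The AML2 libraries had 1511, 1349 and 1750 CPM with JQ1, against 198, 135 and 311 CPM with vehicle. JQ1 raised it in AML2 alone, where the groups did not overlap, and they did in AML3 (difference -3.24, SE 0.73, adjusted p 0.00566), but the difference was -2.49 without AML3 vehicle replicate 3. S100A6 had 97.4 to 229 CPM in AML3 with JQ1, against 146 to 257 CPM with vehicle, and 637 to 950 CPM in AML2 with JQ1, against 81.9 to 122 CPM with vehicle (difference -3.36, SE 0.44, adjusted p 1.51e-05). Of the 6 genes, 3 passed without AML3 vehicle replicate 3.

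Genes of NF-kB signalling, the pathway that tumour necrosis factor and interleukin-1 activate, were lower for 7 of 24 and higher for 0 (median -1.03), and JQ1 raised 10 of the 24 in AML3 and 18 in AML2 (26.8% and 17.2% of all genes). NFKBIA, the inhibitor that NF-kB itself induces, rose in both lines. It had 51.6, 45.4 and 90.2 CPM in AML3 with JQ1, against 25.8, 20.8 and 31.2 CPM with vehicle, and 357, 337 and 411 CPM in AML2 with JQ1, against 11.8, 22.2 and 26.8 CPM with vehicle. The rise was 1.24 in AML3 (SE 0.30) and 4.19 in AML2 (SE 0.30), so the lines differed in size and not in direction (difference -2.95, SE 0.42, adjusted p 4.21e-05). The inhibitors NFKBIE and TNFAIP3 were opposite, TNFAIP3 not so with replicates 1 and 2 alone. NFKBIE had 10.7 to 21.7 CPM in AML3 with JQ1, against 42.2 to 52.8 CPM with vehicle, and 49.4 to 52.5 CPM in AML2 with JQ1, against 25.3 to 28.1 CPM with vehicle. TNFAIP3 had 3.61 to 4.45 CPM in AML3 with JQ1, against 9.38 to 12.8 CPM with vehicle, and 71.9 to 104 CPM in AML2 with JQ1, against 23 to 29.5 CPM with vehicle. The cytokine IL1B had 9.02 to 17.8 CPM in AML3 with JQ1, against 27 to 45.4 CPM with vehicle, and 57.3 to 124 CPM in AML2 with JQ1, against 7.59 to 28.1 CPM with vehicle. It was apart in both lines, but its fall in AML3 (-1.29, SE 0.54, adjusted p 0.0478) was lost without any AML3 vehicle replicate or AML3 JQ1 replicate 2 or 3, and its opposite class with upper-quartile factors or a minimum of 10 CPM.

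Among AP-1 and immediate early genes, which JQ1 raised in AML3 for 22 of 24 and in AML2 for 21 (26.8% and 17.2% of all genes), 3 differences were higher (DUSP10, FOSB and IER5) and 3 lower (BTG2, DUSP2 and KLF2), and 2 remained without AML3 vehicle replicate 1. KLF2, a factor that quiets myeloid activation, had 54.2, 42.3 and 114 CPM in AML3 with JQ1, against 22.3, 27.7 and 25.5 CPM with vehicle. In AML2 it had 68.5, 93.4 and 70.6 CPM with JQ1, against 1.69, 1.09 and 2.56 CPM with vehicle. JQ1 brought it to like levels in both lines from unlike ones, and the difference was -4.10 (SE 0.63, adjusted p 0.00012). The phosphatase DUSP2 had 0, 1.06 and 0 CPM in AML3 with JQ1, against 8.8, 8.65 and 0 CPM with vehicle, so that the groups overlapped. Over each group these were 1 tag with JQ1 against 25 with vehicle (18.4-fold lower, 95% counting interval 3.01 to 755), and 20.3 to 42.3 CPM in AML2 with JQ1, against 10.9 to 15.3 CPM with vehicle (adjusted p of the difference 0.00371). Its rise in AML2 was lost without AML2 vehicle replicate 2 or AML2 JQ1 replicate 1 or 3.

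Cell division genes are read against the falls of all genes, 24.1% in AML3 and 17.4% in AML2. Of 46 DNA replication genes, JQ1 lowered 40 in AML3 and 23 in AML2, and the difference was lower in AML3 for 13 and higher for 0 (median -0.76). Of 54 mitosis genes, it lowered 51 in AML3 and 26 in AML2, and 14 differences were lower and 0 higher (median -0.91). MCM5, a subunit of the replicative helicase, had 21.7 to 30.7 CPM in AML3 with JQ1, against 96 to 155 CPM with vehicle, and 62.8 to 67.9 CPM in AML2 with JQ1, against 91.7 to 119 CPM with vehicle (difference -1.62, SE 0.32, adjusted p 0.00191). These counts moved when single libraries were left out. The 13 replication genes were 7 without AML2 JQ1 replicate 2, 8 without AML2 JQ1 replicate 1 and 8 without AML2 vehicle replicate 2. The 14 mitosis genes were 3 without AML3 JQ1 replicate 2, 4 without AML3 JQ1 replicate 1, 5 without AML3 vehicle replicate 3 or AML2 JQ1 replicate 1 or 2, 7, 8 and 9 without AML2 vehicle replicate 2, 1 and 3, and 28 with replicates 1 and 2 alone. Of 53 histone genes, JQ1 lowered 41 in AML3 and 4 in AML2, and 3 differences were above 0 (median -1.07). The called differences were 3 lower and 0 higher. They were 1 without any of AML2 vehicle replicates 1 and 2, AML2 JQ1 replicates 1 and 2 and AML3 vehicle replicates 2 and 3, and 29 with replicates 1 and 2 alone. Tags of histone genes can be split between near-identical copies.

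In the stored proteins of granules, 3 of 11 primary granule genes were lower and 0 higher (CTSG, MS4A3 and SRGN). Cathepsin G, encoded by CTSG, had 34.7, 26.4 and 5.41 CPM in AML3 with JQ1, against 2554, 2718 and 4190 CPM with vehicle. The AML2 libraries had 1157, 1116 and 1212 CPM with JQ1, against 1652, 1699 and 907 CPM with vehicle. The groups were far apart in AML3 and overlapped in AML2, with changes of -7.05 (SE 0.52) and -0.29 (SE 0.38, adjusted p 0.593) and a difference of -6.76 (SE 0.62, adjusted p 7.67e-08). MS4A3, a granulocyte membrane protein, fell in both lines. It had 2 tags in AML3 with JQ1, against 620 with vehicle (228-fold lower, 95% counting interval 62.9 to 1890), and 6.85 to 17.6 CPM in AML2 with JQ1, against 171 to 245 CPM with vehicle. Of 38 lysosome and autophagy genes, JQ1 raised 14 in AML3 and 19 in AML2 (26.8% and 17.2% of all genes), and 6 were lower and 0 higher (CTSB, CTSD, CTSH, GRN, MAP1LC3A and PSAP), 3 without AML2 vehicle replicate 2. Of 7 metallothioneins, which bind zinc and copper, 4 were lower (MT1E, MT1F, MT1X and MT2A) and 0 higher (median -2.84). The 4 were 2 without AML2 JQ1 replicate 3 or AML3 vehicle replicate 1, and near-identical copies of these genes can share tags. The call of MT1X was lost without any of 10 of the 12 libraries. It was also lost with a minimum of 10 CPM and in a fit of the 12 libraries alone. MT1F had 7.11, 8.46 and 1.8 CPM in AML3 with JQ1, against 121, 161 and 116 CPM with vehicle, and 7.99, 9.7 and 14.1 CPM in AML2 with JQ1, against 34.6, 25.5 and 28.1 CPM with vehicle (difference -2.84, SE 0.52, adjusted p 0.000883).

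**Figure D4:**
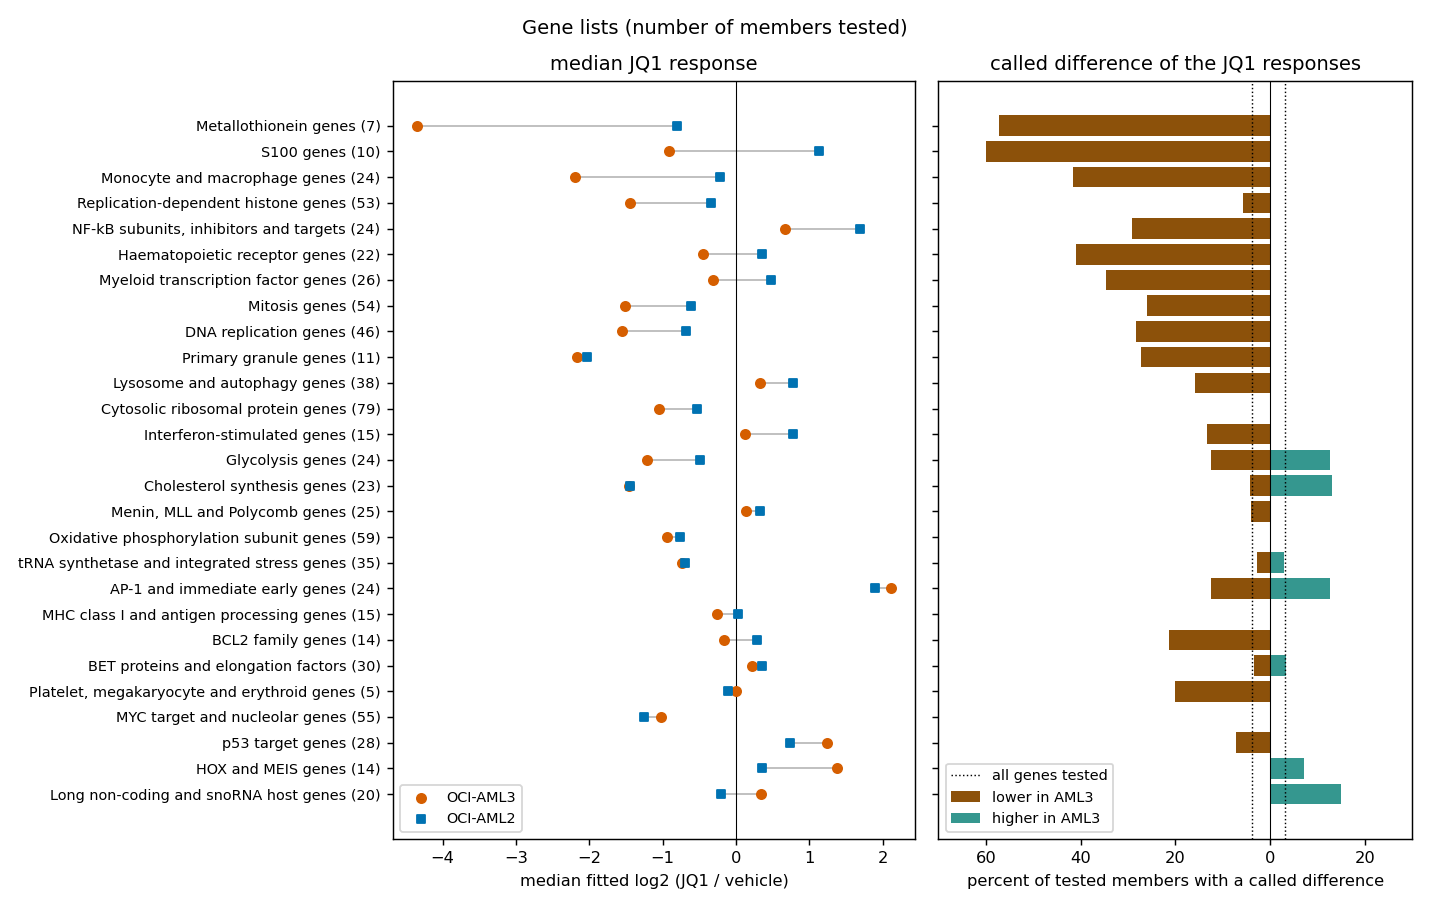
For each list with at least 5 tested members (number in brackets), the left panel gives the median fitted log2 ratio of JQ1 to vehicle in AML3 (circles) and AML2 (squares), and the right panel the percent of members with a called difference, lower in AML3 to the left and higher to the right. The dotted lines mark the 3.92% lower and 3.02% higher of all genes tested, and the longest bars are S100, metallothionein, monocyte and receptor genes, all to the left.

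Metabolic lists moved both ways. Of 24 glycolysis genes, 3 were higher (BPGM, PDK1 and SLC16A1) and 3 lower (HK3, PFKL and PGAM1). PGAM1, the phosphoglycerate mutase, had 33.8, 39.1 and 27.1 CPM in AML3 with JQ1, against 335, 387 and 355 CPM with vehicle, and 172, 160 and 120 CPM in AML2 with JQ1, against 176, 181 and 273 CPM with vehicle. It fell in AML3 (-3.40, SE 0.27) and was not called in AML2 (-0.46, SE 0.23, adjusted p 0.125), with a difference of -2.94 (SE 0.35, adjusted p 4.88e-06). PDK1, the kinase that holds back pyruvate dehydrogenase, fell in AML2 alone. It had 43.6 to 61.3 CPM in AML3 with JQ1, against 42.4 to 48.7 CPM with vehicle, and 6.85 to 19.4 CPM in AML2 with JQ1, against 39.6 to 52.6 CPM with vehicle (difference 2.21, SE 0.36, adjusted p 0.000261). Of 23 cholesterol synthesis genes 3 were higher (HMGCS1, IDI1 and SQLE) and 1 lower (INSIG1), 2 in all without AML2 vehicle replicate 2, AML2 JQ1 replicate 1 or 2, or AML3 vehicle replicate 3. The synthase HMGCS1 had 47.1 to 70.4 CPM in AML3 with JQ1, against 42.5 to 88 CPM with vehicle, and 12.3 to 22.9 CPM in AML2 with JQ1, against 86.8 to 132 CPM with vehicle (difference 2.34, SE 0.41, adjusted p 0.000476). Among 20 long non-coding and snoRNA host genes on the list, 3 were higher and 0 lower (DANCR, SNHG1 and SNHG3; median 0.69), and 6 with replicates 1 and 2 alone. The call of SNHG3 was lost without any of 10 of the 12 libraries, with no filter and in a fit of the 12 libraries alone. DANCR had 56.9 to 78.2 CPM in AML3 with JQ1, against 57.5 to 80.8 CPM with vehicle, and 45.8 to 68.5 CPM in AML2 with JQ1, against 195 to 210 CPM with vehicle.

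Other lists held few or no called differences. No member passed the test among 55 MYC target and nucleolar genes (median 0.14), 79 cytosolic ribosomal protein genes (median -0.51), 59 oxidative phosphorylation genes (median -0.16), 15 MHC class I genes (median -0.11) and 3 T, B and NK cell genes. JQ1 lowered 42 of the MYC target and nucleolar genes in AML3 and 44 in AML2 (24.1% and 17.4% of all genes). It lowered 39 of the ribosomal protein genes in AML3 and 9 in AML2, and 6 of their 79 differences were above 0. Of the oxidative phosphorylation genes it lowered 42 in AML3 and 28 in AML2. Single differences were called for HOXA3 among 14 HOX and MEIS genes, BMI1 among 25 menin, MLL and Polycomb genes, CD74 among 3 MHC class II genes, PECAM1 as the only gene tested of the stromal and epithelial list and GP1BB among 5 platelet and erythroid genes. There were 2 each among 15 interferon-stimulated genes (IFI6 and IRF9), 28 p53 targets (BTG2 and TP53I3), 30 BET and elongation factor genes (AFF3 and MLLT3) and 35 tRNA synthetase and stress genes (EPRS and SHMT2), and 3 among 14 BCL2 family genes (BCL2A1, BID and BNIP3L). The summed stromal and epithelial markers, carried mainly by PECAM1, were at 7.22 to 20.1 CPM in AML3 with JQ1, 10.6 to 31.2 CPM in AML3 with vehicle, 84.7 to 203 CPM in AML2 with JQ1 and 28.1 to 35.4 CPM in AML2 with vehicle. Of these, the calls of HOXA3, BMI1, MLLT3, IRF9, EPRS, BTG2, BCL2A1, BID and BNIP3L were lost when 1 or more libraries were left out.

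Differences of size without a change of direction are shown by 4 kinds of genes. USP53, a ubiquitin protease family member, rose in both lines and more in AML3. It had 418, 408 and 404 CPM in AML3 with JQ1, against 36.9, 26 and 34 CPM with vehicle, and 21.7, 24.7 and 8.82 CPM in AML2 with JQ1, against 5.9, 10.9 and 8.94 CPM with vehicle. The groups did not overlap in AML3 and did in AML2, with rises of 3.66 (SE 0.27) and 1.14 (SE 0.36) and a difference of 2.52 (SE 0.46, adjusted p 0.000805). The fucosidase FUCA1, the glycosidase ENGASE and the ETS factor ETV5 were of the same kind, with differences of 3.37 (SE 0.63), 1.67 (SE 0.32) and 1.77 (SE 0.34). SRD5A1, a steroid reductase, rose more in AML2. It had 65.8, 68.7 and 46.9 CPM in AML3 with JQ1, against 8.21, 18.2 and 12.8 CPM with vehicle, and 276, 276 and 478 CPM in AML2 with JQ1, against 4.21, 6.51 and 1.28 CPM with vehicle (difference -3.91, SE 0.57, adjusted p 5.95e-05, and -4.51 without AML2 vehicle replicate 2). CYB561A3, a lysosomal iron reductase, had a difference of -3.06 (SE 0.37).

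SELPLG, the leukocyte ligand of P-selectin, fell in both lines and more in AML3. It had no tag in AML3 with JQ1, against 29.9, 26.8 and 24.1 CPM with vehicle, at least 24.3-fold lower. In AML2 it had 13.7, 16.8 and 19.4 CPM with JQ1, against 32.9, 40.1 and 38.3 CPM with vehicle (adjusted p of the difference 0.00021). MYC was among the 5 genes that fell more in AML2. It had 65.8, 65.5 and 77.6 CPM in AML3 with JQ1, against 182, 209 and 183 CPM with vehicle, and 52.5, 62.6 and 84.7 CPM in AML2 with JQ1, against 406, 447 and 464 CPM with vehicle. JQ1 brought MYC to overlapping levels in the lines, with falls of -1.47 in AML3 (SE 0.24) and -2.74 in AML2 (SE 0.24) and a difference of 1.27 (SE 0.33, adjusted p 0.0166). This difference was lost without AML2 JQ1 replicate 1, AML2 JQ1 replicate 2 or AML3 vehicle replicate 1. PSMG1, a proteasome assembly chaperone, had a difference of 1.68 (SE 0.33, adjusted p 0.00155) that held without any of the 12 libraries. The differences of NDUFAF2, of complex I assembly (1.33, SE 0.35), and PLOD3, a lysyl hydroxylase (1.52, SE 0.43), were lost without 4 and 8 of them.

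Genes called in a single line are not shown to be unchanged in the other. RERE, a nuclear receptor co-regulator, had 85.4, 70.8 and 97.4 CPM in AML3 with JQ1, against 8.8, 8.65 and 7.09 CPM with vehicle, and 29.7, 29.1 and 33.5 CPM in AML2 with JQ1, against 17.7, 22.8 and 17.9 CPM with vehicle. It was apart in both lines, but the rise in AML2 (0.61, SE 0.25) missed the threshold with an adjusted p of 0.0565, while the difference was 2.69 (SE 0.36, adjusted p 2.37e-05). The stress factor ATF5 and the kinase STK17A also rose in AML3 alone, with differences of 1.99 (SE 0.34) and 2.11 (SE 0.36). The actin regulators CORO1A and LSP1 of leukocytes fell in AML3 alone. CORO1A had 4.45 to 7.4 CPM in AML3 with JQ1, against 47.6 to 65.2 CPM with vehicle, and 88.2 to 99.3 CPM in AML2 with JQ1, against 54.8 to 89.4 CPM with vehicle (difference -3.66, SE 0.37, adjusted p 4.87e-07). LSP1 had 10.8 to 11.6 CPM in AML3 with JQ1, against 120 to 131 CPM with vehicle (difference -3.65, SE 0.38, adjusted p 6.38e-07). Rises called in AML2 alone included the amino acid transporter SLC43A2, the membrane protein ITM2C and the nuclear envelope protein SUN2, with differences of -4.92 (SE 0.64; -5.57 without AML2 vehicle replicate 3), -2.77 (SE 0.42) and -2.08 (SE 0.31). Falls called in AML2 alone included BZW2, a regulator of translation initiation (1.64, SE 0.27), and VAT1L (3.23, SE 0.55).

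**Figure D5:**
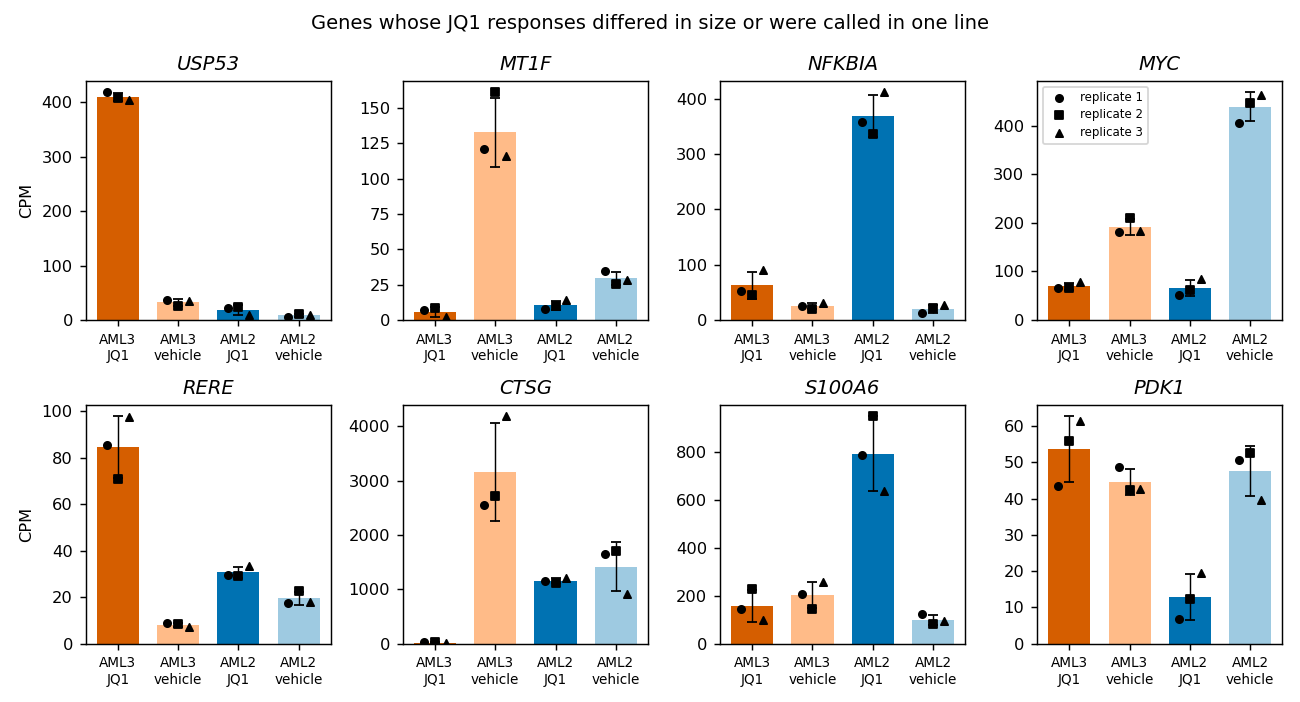
Level in CPM (vertical axis, from 0) of 8 genes whose responses differed in size or were called in a single line, in AML3 with JQ1, AML3 with vehicle, AML2 with JQ1 and AML2 with vehicle; bars are means, error bars SD (n = 3) and symbols the replicates. USP53 and MT1F changed more in AML3 and NFKBIA and MYC more in AML2, RERE and CTSG were called in AML3 alone, and S100A6 and PDK1 in AML2 alone.

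Genes known for their response to BET inhibition or their role in NPM1-mutated leukaemia mostly showed no called difference. HEXIM1 had 248, 249 and 637 CPM in AML3 with JQ1, against 18.8, 8.65 and 19.9 CPM with vehicle, and 110, 114 and 228 CPM in AML2 with JQ1, against 15.2, 10.9 and 26.8 CPM with vehicle. It rose by 4.57 in AML3 (SE 0.51) and 3.16 in AML2 (SE 0.51), and the difference of 1.42 (SE 0.71) had an adjusted p of 0.262 and was 0.81 without AML3 JQ1 replicate 3. SERPINI1, which BET inhibitors are known to raise, had 3 tags in AML3 with vehicle and 70 with JQ1 (31.7-fold higher with JQ1, 95% counting interval 10.4 to 157), and 19.4 to 22.9 CPM in AML2 with JQ1, against 0 to 4.21 CPM with vehicle (adjusted p of the difference 0.416). HOXA9 (difference 0.87, SE 0.37, adjusted p 0.169) and MEIS1 (-0.78, SE 0.33, adjusted p 0.165), the homeobox genes of this leukaemia, rose in both lines. The stronger of 2 tested HOXA9 promoters (chr7:27205136-27205164, hg19), looked up after its values were seen, rose more in AML3 (difference 1.58, SE 0.40, adjusted p 0.0154), and the other did not differ by the test (0.41, SE 0.35, adjusted p 0.567). BCL2, an inhibitor of apoptosis, and NPM1 fell in both (differences -0.96, SE 0.43, adjusted p 0.199, and -0.02, SE 0.51, adjusted p 1.0). The differences of BRD2 (0.21, SE 0.45, adjusted p 0.848), BRD3 (-0.62, SE 0.31, adjusted p 0.249), CDK6 (1.24, SE 0.65, adjusted p 0.287) and MYB (-0.59, SE 0.40, adjusted p 0.436) did not pass either, and that of CDK6 was 0.34 without AML3 JQ1 replicate 3. A p that misses the threshold does not show equal responses, and the standard errors of HEXIM1 and CDK6 leave room for differences as large as those called elsewhere.

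The levels of these genes with OTX015, a related BET inhibitor, are given beside those with vehicle for 4 opposite genes, and they share these vehicle libraries with the JQ1 comparison. FABP5 had 963, 634 and 293 CPM in AML3 with OTX015, against 222, 172 and 333 CPM with vehicle, where 1 library lay inside the vehicle range, and 29.2 to 82.1 CPM in AML2 with OTX015, against 322 to 414 CPM with vehicle. CAPG had 17.5 to 28 CPM in AML3 with OTX015, against 111 to 132 CPM with vehicle, and 242 to 305 CPM in AML2 with OTX015, against 52.6 to 75 CPM with vehicle. ITGAX had no tag in AML3 with OTX015, and 61 to 92.6 CPM in AML2 with OTX015, against 5.11 to 8.68 CPM with vehicle. FAM3C, which fell in AML2 with JQ1, had 24.5, 21.3 and 46.3 CPM in AML2 with OTX015, which overlapped its 23.6, 26 and 34.5 CPM with vehicle.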

How the data were processed

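CAGE tags of 18 libraries were deposited as tables of counts per gene symbol (14079 genes) and per promoter (42133 promoters), which hold whole, unnormalized tag counts by the authors. RNA was total RNA extracted with a column kit, per the labels' protocols. Reads were aligned to hg38 with STAR, per the submitters' processing notes, and no other step is given in the sources used here. A deposited table of enhancers was not used. CAGE counts 5′ ends, so levels need no length correction. Promoter names carry hg19 coordinates for the promoters printed here.

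Genes with low counts were removed with filterByExpr over the 6 groups, and edgeR 4.0.16 (R 4.3.3) with TMM factors fitted all 18 libraries with 1 mean per group (12 residual degrees of freedom). CPM used library size times TMM factor. The difference between lines was a two-sided quasi-likelihood test of the interaction, Benjamini-Hochberg adjusted over all genes or all promoters, with a threshold of 0.05, and the SE was the log2 value over the square root of F. A called feature was opposite where JQ1 against vehicle was also called in both lines with unlike signs. The procedure was tested on simulated counts drawn independently for each library. Such counts cannot show how it behaves where libraries share an effect of replicate number.

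Members, lists and rules were chosen with earlier results of these data known. Named genes were, among those that average at least 10 CPM, the 8 with the smallest adjusted p in each opposite direction and 4 in each of the other classes, and, with no such minimum, up to 4 called members per list and a fixed set of known genes. Some genes that the rule names are not reported here. DUSP2, HK3, GP1BB and others came by the lists. For promoters the 4 with the smallest adjusted p in each opposite direction were named. Groups followed the labels. Alternatives were RLE or upper-quartile factors, DESeq2 1.42.0, other filters, the 12 libraries alone, replicate blocks, stricter thresholds and leaving out libraries.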

Additional observations from a re-analysis of the deposited data

Results flagged for a closer look

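The JQ1 response of the following genes was called in both lines with unlike signs, and the interaction tested the difference itself (edgeR, adjusted p under 0.05). Values are differences of log2 changes, AML3 minus AML2, unless an adjusted p is named. Among genes that fell in AML3 and rose in AML2, the difference was -5.15 for AFF3, -3.89 for CAPG, -4.15 for CYBB, -3.07 for DOK2 and -1.91 for GFI1. It was -4.04 for GP1BB, -3.87 for IL1B, -1.97 for IL6R and -5.81 for LST1. It was -2.54 for NFKBIE, -2.58 for RAB8B, -1.87 for RRM2, -3.2 for S100A4, -2.93 for TNFAIP3, -1.93 for TNFRSF1A and -3.3 for TYROBP. For genes with 2 or fewer tags in AML3 with JQ1, the adjusted p of the difference was 8.6e-09 for GPR84, 3.78e-06 for ITGAX, 0.00176 for HK3 and 0.00371 for DUSP2. Among genes that rose in AML3 and fell in AML2, the difference was 1.77 for COQ4, 1.73 for CZ1P-ASNS, 4.05 for FABP5 and 3.06 for FAM3C. It was 3.38 for ID3, 2.99 for INKA1, 3.69 for KIF16B and 2.43 for SNHG19. The difference of each of these genes stayed called without any 1 of the 12 libraries. The opposite class of GP1BB was lost without AML2 vehicle replicate 1 or 2 or AML2 JQ1 replicate 1 or 3.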

How the results depend on the processing

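Counts depended most on the threshold and on replicate 3. At an adjusted p under 0.01, 312 genes differed (41 opposite, 23 same direction, 245 in a single line) and 319 promoters (45, 21 and 250 in that order). With replicates 1 and 2 alone there were 1263 genes (177, 193 and 879) and 1354 promoters (186, 215 and 936). With a replicate block, 157 same-direction and 130 opposite genes, 183 same-direction promoters and 1075 promoters in all were called. With a replicate block within each line there were 1149 genes (184 same direction, 143 opposite, 807 in a single line) and 1172 promoters (206 and 816). HEXIM1 was called under both blocks (lowest adjusted p 0.0307), CDK6 under the block within each line (0.0498) and HOXA9 with replicates 1 and 2 alone (0.0288, edgeR). The main model did not pair libraries by replicate number. Between vehicle and JQ1 libraries of the same number, deviations from the group mean correlated at 0.036 to 0.08 in AML3 and 0.06 to 0.161 in AML2. For unlike numbers the medians were -0.052 and -0.066. Between all groups, 4 of 18 same-number correlations were over 0.1 (median 0.056, against -0.018 for unlike numbers). Whether the numbers pair the libraries was not tested. Leaving out 1 library gave 462 to 723 genes (76 to 104 opposite, 42 to 81 same direction, 330 to 538 in a single line) and 467 to 741 promoters (84 to 109, 42 to 79 and 338 to 552). DESeq2 called 638 genes, and other factors, filters or the 12 libraries alone 667 to 709. No named gene with a called difference changed direction, while the uncalled differences of NPM1 (-0.25 to 0.27) and BRD2 (-0.08 to 0.47) crossed 0. The opposite class of GP1BB was lost with a minimum of 10 CPM. Of the 106 opposite genes 39 kept their class without any 1 library, and 35 of these were among the 84. The shallowest library, AML3 JQ1 replicate 3 (378794 gene tags), limits low genes. The cause of these shifts was not tested.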
